A study of Homo sapiens with 4 samples.

Results

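The 10 noncoding genes GAS5, SNHG1, SNHG3, SNHG5, SNHG6, SNHG7, SNHG8, SNHG12, SNHG15 and SNHG16 are host genes of small nucleolar RNAs (snoRNAs), and their levels were compared between K562-U2AF1 S34F cells given DMSO and the same cells given SF1-8. They were chosen by name. For each symbol the entry of the deposited table that names it was taken, and where several entries name it (4 for SNHG5) the one with the highest mean count, so all 10 were found among 62778 entries with a gene name. All 10 passed the filter on low counts, among 26167 entries tested. K562 is an established human erythroleukemia line, and every library came from cells that overexpress the S34F mutant of the splicing factor U2AF1, which recognizes the 3′ splice site. The groups were 2 libraries of cells given the solvent DMSO and 2 of cells given 30 μM SF1-8, a compound against the U2AF homology domain of U2AF1, both for 48 h. There were no cells without the mutant and none without solvent, and the labels do not say whether the libraries of a group came from separate cultures, so a p-value here measures the spread between these libraries, which may be technical. Total RNA depleted of ribosomal RNA was sequenced.

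A snoRNA host gene carries snoRNAs in its introns, and splicing releases them for processing into RNA-protein particles. Box C/D snoRNAs guide methylation of the ribose and box H/ACA snoRNAs guide pseudouridylation, mostly of ribosomal RNA. For many such noncoding host genes the exons are joined into an RNA with no long reading frame, which ribosomes can engage and nonsense-mediated decay (NMD) can remove. Many host RNAs start with a 5′ terminal oligopyrimidine (TOP) tract, as do the mRNAs of ribosomal proteins.

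GENCODE version 29 (GRCh38) places 25 snoRNA annotations at 22 separate positions inside 9 of the host genes. All 25 lie in introns of the host transcript with the most exons. Of the 25, 12 are named as box C/D (SNORD) and 11 as box H/ACA (SNORA), with lengths from 69 to 206 bases. SNHG1 (6 SNORD genes), SNHG16 (3), SNHG5 (1) and SNHG6 (1) carry box C/D snoRNAs. SNHG3 (2 SNORA genes), SNHG7, SNHG8 and SNHG15 carry box H/ACA snoRNAs, and SNHG12 carries both kinds. This search found no snoRNA annotation inside GAS5, so its snoRNAs, which are of the box C/D kind, are not among the 25.

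The start sites are shown because a TOP start is known for many snoRNA hosts, and some of the annotated starts here carry such letters while others do not. RefSeq gives a start window on GRCh38.p14 for 8 of the 10 genes. A C within 10 bases of the annotated start, followed on the transcribed strand by at least 4 bases that are each C or T, was found in 5 of these 8 windows and in 33.5% of all 35116 windows. The letters TATAA, on the same strand and 45 to 15 bases before the start, were found in 4 of the 8 and in 4.10% of all windows. Each window below runs from 40 bases before the start to 25 bases from it, on the strand of the gene, and capitals mark the pyrimidines from the first such C onward and, upstream of them, TATAA. For SNHG7 the run of pyrimidines begins further upstream, so the capitals mark only its part within the searched bases. The windows of SNHG3, GAS5 and SNHG1 hold neither motif. The RefSeq start of SNHG12 lies 1113 bases inside the 5′ end of its entry in the table, that of SNHG5 199 and that of SNHG8 53. The windows are chr6:85678709-85678773 (minus strand) for SNHG5, chr9:136728160-136728224 (minus) for SNHG7, chr1:28581849-28581913 (minus) for SNHG12, chr4:118278722-118278786 (plus) for SNHG8 and chr17:76557724-76557788 (plus) for SNHG16.
SNHG5: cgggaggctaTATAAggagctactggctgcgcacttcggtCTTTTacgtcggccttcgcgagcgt
SNHG7: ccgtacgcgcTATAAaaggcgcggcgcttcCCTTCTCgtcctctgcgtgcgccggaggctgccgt
SNHG12: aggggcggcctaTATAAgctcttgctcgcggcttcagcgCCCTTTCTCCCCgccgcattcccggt
SNHG8: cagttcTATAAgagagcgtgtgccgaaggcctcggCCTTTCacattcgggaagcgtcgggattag
SNHG16: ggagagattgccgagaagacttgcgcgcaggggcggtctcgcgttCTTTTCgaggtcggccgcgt

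For GAS5 the RefSeq start lies 1056 bases upstream of the 5′ end of the entry in the table, so the starts of GENCODE transcripts were looked at as well. Of the 129 GENCODE transcripts of the 10 genes, 21 (16.3%) begin with C and then 4 pyrimidines, against 2.41% of all 206694 transcripts. These transcripts came from 8 of the 10 genes, with 6 of 29 for GAS5 and 0 for SNHG7 and SNHG15. The starts printed below were picked, among the transcripts that begin in this way, as the nearest to the 5′ end of the entry. That they carry a tract (in capitals) was therefore fixed by the choice. The GAS5 transcript starts exactly at the 5′ end of the entry (position 173867989 of chromosome 1), and the SNHG3 transcript at position 28506043. The SNHG3 transcript is 1 of 3 of that gene and starts 100 bases inside the entry, whereas the RefSeq start, at the 5′ end of the entry, has no tract.
GAS5: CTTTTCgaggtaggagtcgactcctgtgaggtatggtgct
SNHG3: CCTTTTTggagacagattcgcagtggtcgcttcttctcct

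What an entry measures sets how the levels can be read. FPKM divides the count by a length, and that length was recovered from the ratio of count to FPKM, calibrated on 37 short single-transcript RNAs. For the 10 host genes it was 3.33 to 18.8 times the median spliced transcript length of GENCODE version 29. For SNHG5 it was 12632 bases against a median of 672 for its spliced transcripts, and for SNHG1 it was 3984 bases against 748. As a share of the span of the entry the length ran from 23.3% for SNHG3 to 107% for SNHG15, above the span itself, so it is not a count of covered bases. The entries join many transcripts, among them ones with retained introns, and 9 of the 10, all but GAS5, name at least 1 snoRNA of the gene itself. The entries of SNHG3, SNHG5, SNHG8 and GAS5 also reach well beyond the GENCODE bounds of the gene. The entry spans 6608 bases against 1115 for the SNHG8 gene, 9431 against 4983 for GAS5 and 28442 against 17799 for SNHG5. Their values may therefore include RNA from outside the host gene. Each value is a total over the transcripts of its entry, so spliced and unspliced host RNA cannot be told apart in it.

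**Figure D1:**
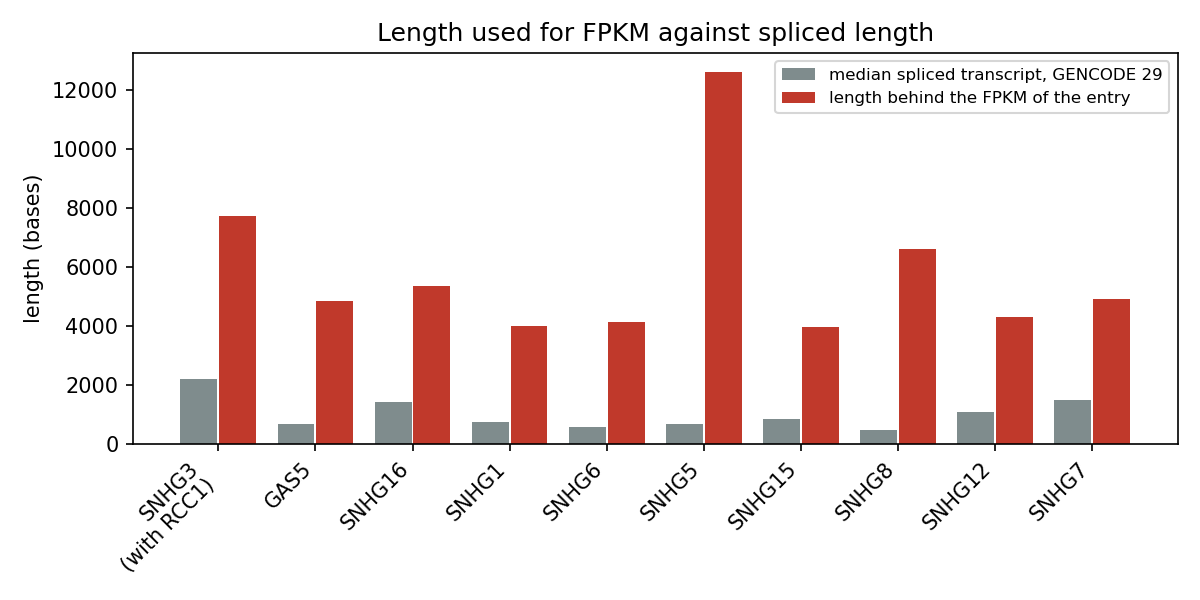
Bars give, for each of the 10 host genes, the median spliced length of its GENCODE version 29 transcripts (grey) and the length behind the FPKM of its entry (red), in bases. The red bar exceeds the grey one by 3.33 to 18.8 times, most for SNHG5.

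The highest FPKM was that of the entry of SNHG3, but this entry also names RCC1, the exchange factor of the GTPase Ran, and SNORA73A, so it does not give the level of SNHG3. GAS5, SNHG16 and SNHG1 followed, with DMSO means of 26.2, 23.4 and 21.3 FPKM. GAS5 and SNHG1 did not overlap across the 4 libraries, while the values of SNHG16 spanned those of both. SNHG6 came next at 10.3 to 11.3 FPKM over the 4 libraries, then SNHG5 at 8.78 to 9.82, and these did not overlap with each other. This order between genes depends on the length behind each FPKM, which was 12632 bases for SNHG5. By count the order was the other way, with 6928 to 10024 per library for SNHG5 and 2539 to 3774 for SNHG6. SNHG15, SNHG8, SNHG12 and SNHG7 had DMSO means of 6.83, 6.37, 6.20 and 5.92 FPKM and overlapped with one another. All 10 entries were well expressed, the lowest having a higher mean FPKM than 80.0% of the tested entries.

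**Figure D2:**
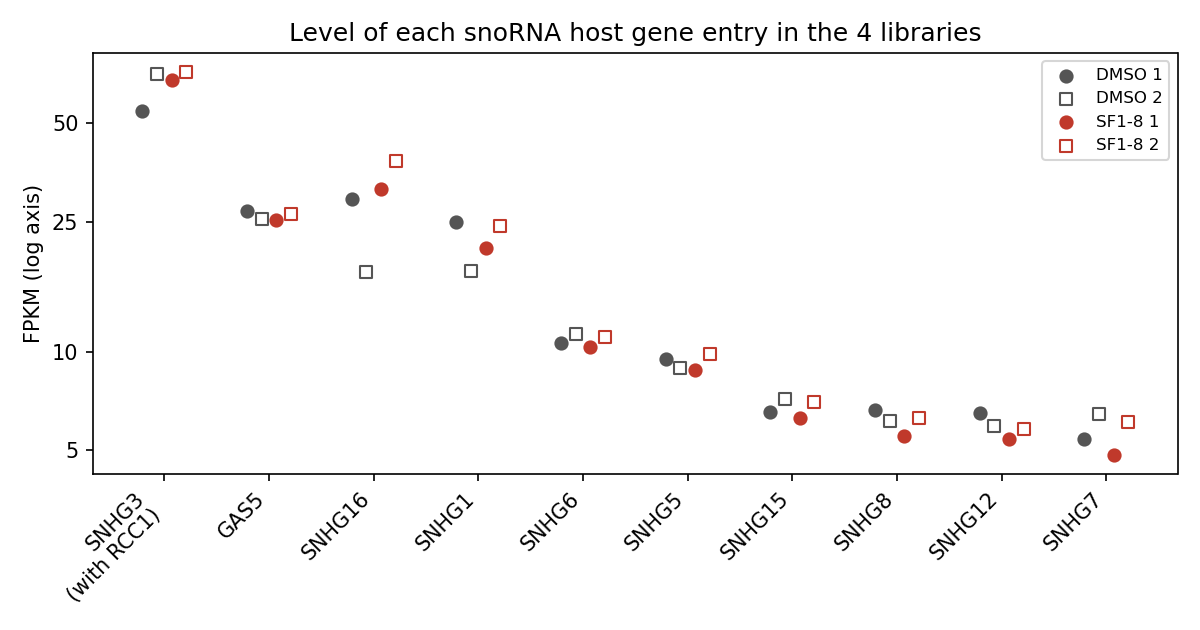
The FPKM (log axis) of each host gene entry is plotted for the 4 libraries, DMSO in grey and SF1-8 in red, with circles for replicate 1 and squares for replicate 2. The groups lie on top of each other except for SNHG16, where DMSO 2 sits at 17.6 and the other libraries between 29.3 and 38.4, and SNHG12, where both SF1-8 libraries sit just below both DMSO libraries.

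No host gene passed the test for a difference between SF1-8 and DMSO. At an adjusted p under 0.05 (quasi-likelihood test of edgeR, adjusted over all tested entries by the method of Benjamini and Hochberg) there were 0 of the 10, against 0.042% of all tested entries, 0.0229% lower and 0.0191% higher with SF1-8. DESeq2 and limma also called 0 of the 10. At an unadjusted p under 0.05, 1 of the 10 differed (SNHG16), against 4.33% of all tested entries, 2.54% lower and 1.78% higher. The log2 fold change was negative for 5 genes and positive for 5. Their median was -0.0037, and that of all tested entries was -0.011. The lowest adjusted p among them was 0.970 (edgeR). The FPKM values of the groups did not overlap for 2 of the 10, against 34.2% of tested entries. For SNHG16 they were higher with SF1-8, as in 14.2% of tested entries, and for SNHG12 lower, as in 20.0%. For 9 of the 10 the log2 fold change was at most 0.2 in size, as it was for 84.1% of the 4916 tested entries whose mean FPKM lay within the range of these genes. The 95% intervals of the fit bound what was not detected, and across the 10 genes they reached from 0.693-fold to 2.30-fold. A p that misses the threshold does not show that the levels were equal.

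**Figure D3:**
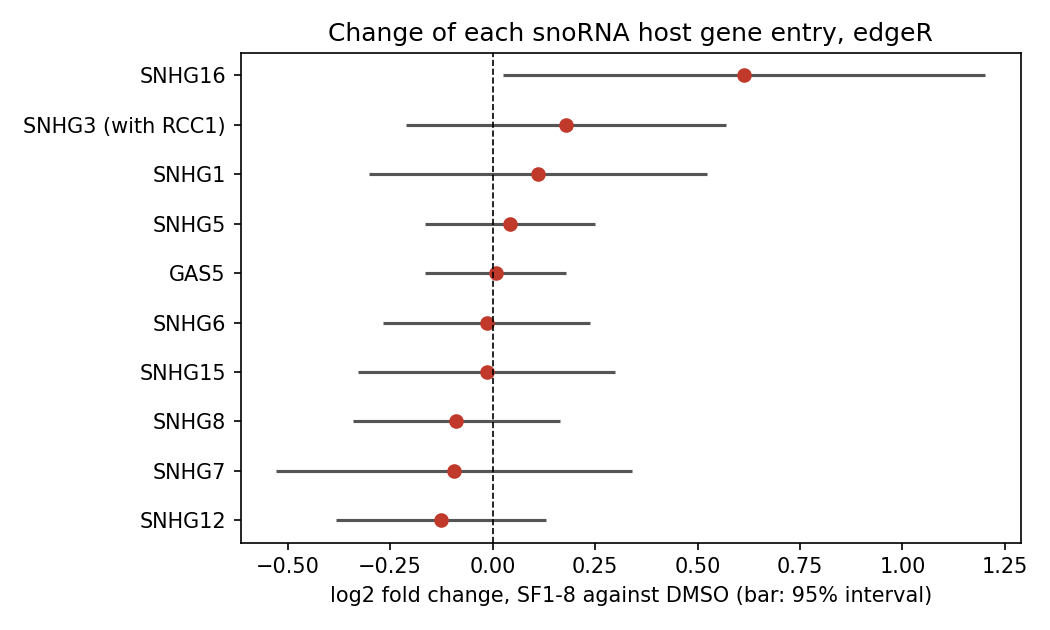
Points give the log2 fold change of each host gene entry, SF1-8 against DMSO, from edgeR, and bars its 95% interval. The interval includes 0 for all but SNHG16, whose lower end is 0.024.

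Among the hosts of box C/D snoRNAs, GAS5 (growth arrest-specific 5), whose RNA is known to accumulate when translation slows and its decay is relieved, had the smallest standard error of the 10. Its entry, on chromosome 1 of GRCh38 from 173858559 to 173867989, gave FPKM of 26.9 and 25.4 under DMSO and 25.3 and 26.3 under SF1-8. This entry reaches beyond the annotated gene, so its FPKM may not be that of GAS5 RNA alone. The groups overlap. On the log2 scale the change was 0.0071 (SE, the standard error, 0.068, edgeR adjusted p = 0.995), and the 95% interval ran from 0.891-fold to 1.13-fold.

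SNHG16 gave the largest difference of the 10. Its entry, on chromosome 17 from 76557764 to 76565348, also names SNORD1A and SNORD1C, 2 of the 3 box C/D snoRNAs of the gene. Its FPKM was 29.3 in DMSO 1 and 17.6 in DMSO 2, and 31.5 in SF1-8 1 and 38.4 in SF1-8 2. DMSO 2 stood apart from the other libraries, and DMSO 1 lay just below SF1-8 1. The fit gave a log2 change of 0.61 (SE 0.231, edgeR adjusted p = 0.970), with a 95% interval from 1.02-fold to 2.30-fold and an unadjusted p of 0.0439. A difference at least as large was seen for 2.42% of the entries within the FPKM range of the 10 genes. It was 0.33 without DMSO 2 and 0.98 without DMSO 1, so either DMSO library moved it by more than 1.5 times. The third snoRNA of the gene, SNORD1B, has an entry of its own at 3.62 and 3.55 FPKM in the DMSO libraries and 3.19 and 1.43 in the SF1-8 libraries, on counts of only 10 to 25 per library. These values were lower with SF1-8, the opposite order to the host entry, but the log2 difference of -0.60 had an SE of 0.747.

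SNHG1 had the most snoRNA annotations of the 9 hosts in which the GENCODE search found any, which leaves out GAS5. It gave FPKM of 24.9 and 17.7 under DMSO and 20.7 and 24.2 under SF1-8. DMSO 2 was again the lowest library, and both SF1-8 values lay between the DMSO values. The log2 fold change was 0.11 (SE 0.162, edgeR adjusted p = 0.970), and it was 0.33 without DMSO 1 and -0.077 without DMSO 2. Its entry lies on chromosome 11 from 62851984 to 62855953, and it names 6 SNORD genes.

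In the GENCODE search SNHG5 and SNHG6 each held 1 snoRNA annotation, SNORD50B and SNORD87, and SNORD50A was not among those found. For SNHG5 (chromosome 6 from 85650491 to 85678932) the DMSO libraries stood at 9.48 and 8.93 FPKM and the SF1-8 libraries at 8.78 and 9.82, so the groups overlap. In the fit the log2 change came to 0.042 (SE 0.082, edgeR adjusted p = 0.976). The entry also names the pseudogene PKMP3, and the other 3 entries of the symbol held between 37 and 72 counts in each library. For SNHG6 (chromosome 8 from 66921684 to 66926398) the DMSO libraries stood at 10.7 and 11.3 FPKM and the SF1-8 libraries at 10.3 and 11.1. The fitted change (log2) was -0.015 (SE 0.099, edgeR adjusted p = 0.993).

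Among the hosts of box H/ACA snoRNAs, the entry of SNHG3 and RCC1 (chromosome 1 from 28505943 to 28539196) gave FPKM of 54.6 and 70.7 under DMSO and 68.0 and 71.7 under SF1-8. DMSO 1 was low, and the other libraries lay close together. On the log2 scale the change was 0.18 (SE 0.153, edgeR adjusted p = 0.970). It was -0.031 without DMSO 1 and 0.43 without DMSO 2. SNORA73B, the other snoRNA of SNHG3, has an entry of its own inside this locus, with 377 FPKM in DMSO 1 and 992 in DMSO 2, against 725 and 871 in the SF1-8 libraries. Its groups overlap too (log2 fold change 0.23, SE 0.462, adjusted p = 0.977, edgeR). DMSO 1 was low for other small structured RNAs too. RN7SK, RMRP, RPPH1 and RN7SL1 had 0.401 to 0.528 of the mean FPKM of the other libraries there, and SNORA73B 0.437. Whether SNORA73A accounts for the low DMSO 1 value of the SNHG3 entry was not tested.

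**Figure D4:**
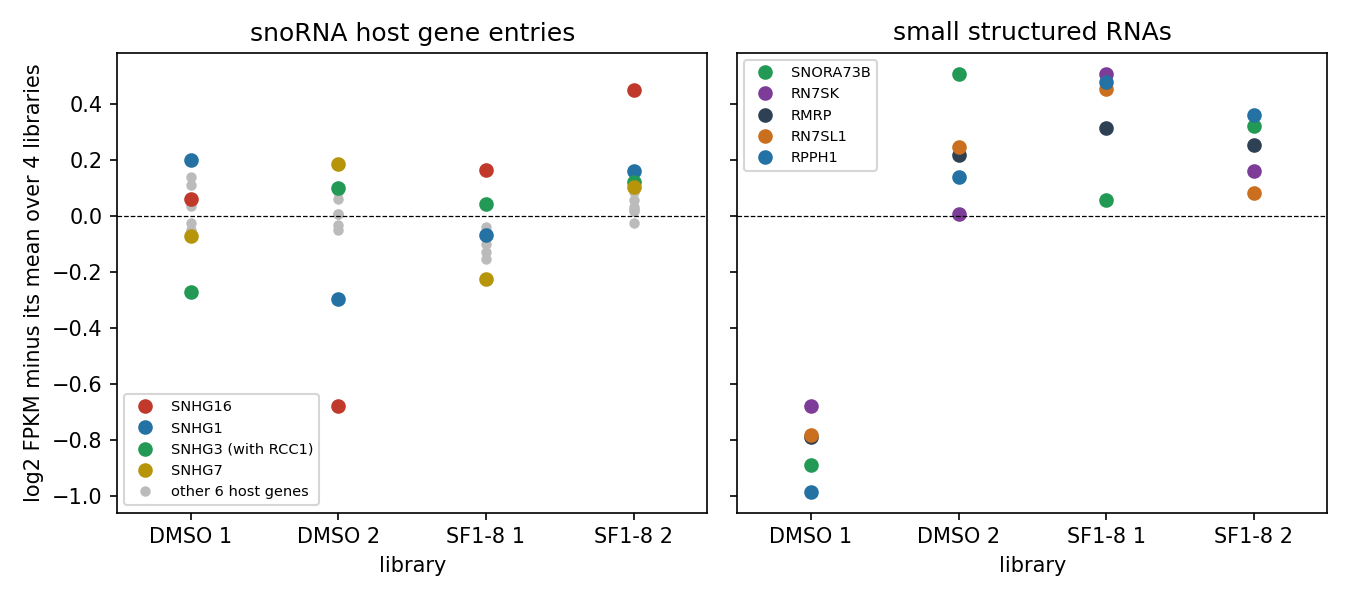
Each point is the log2 FPKM of an entry in a library minus its mean over the 4 libraries, for the 10 host genes (left) and 5 small structured RNAs (right). SNHG16 and SNHG1 are lowest in DMSO 2, and the SNHG3 entry and the small RNAs are lowest in DMSO 1.

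SNHG7 (chromosome 9 from 136721366 to 136728184), which names SNORA17A and SNORA17B, gave FPKM of 5.39 and 6.44 under DMSO and 4.84 and 6.08 under SF1-8. Replicate 1 was lower than replicate 2 in both groups. The log2 fold change of -0.094 (SE 0.171, edgeR adjusted p = 0.972) was -0.25 without DMSO 1 and 0.089 without DMSO 2. SNHG8 (chromosome 4 from 118278709 to 118285316), the host of SNORA24, gave FPKM of 6.60 and 6.15 under DMSO and 5.50 and 6.26 under SF1-8. In the fit the log2 change came to -0.089 (SE 0.099, edgeR adjusted p = 0.970). SNHG15 (chromosome 7 from 44983023 to 44986699), the host of SNORA9, had 6.51 and 7.15 FPKM with DMSO and 6.28 and 7.01 with SF1-8. The fitted change (log2) was -0.015 (SE 0.123, edgeR adjusted p = 0.995). For SNHG7, SNHG8 and SNHG15 the groups overlap.

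SNHG12, which carries snoRNAs of both kinds, was the only gene of the 10 whose FPKM values were lower in both SF1-8 libraries. Its entry (chromosome 1 from 28578538 to 28582986) names SNORA61, SNORA44 and SNORA16A. The DMSO libraries stood at 6.48 and 5.92 FPKM and the SF1-8 libraries at 5.39 and 5.78. The gap between DMSO 2 and SF1-8 2 was small. The fit gave a log2 change of -0.13 (SE 0.101, edgeR adjusted p = 0.970), with a 95% interval from 0.767-fold to 1.10-fold. Its box C/D snoRNA, SNORD99, has an entry of its own on counts of 21 to 54 per library, with 4.81 and 3.96 FPKM with DMSO and 8.63 and 5.31 with SF1-8. This order was the opposite of that of the host, and its log2 fold change of 0.69 had an SE of 0.528.

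Of 35 snoRNA symbols listed for the 10 genes, those of GAS5 included, 18 are named inside a host's entry and 11, SNORD50A among them, have no entry. Of the 18, SNORD27 also has an entry of its own, at 0 in all libraries. A further 6 have only an entry of their own. Of these, SNORD79, SNORD81 and SNORD29 lie away from the host genes and held at most 2 counts in a library. The 3 tested as separate entries were SNORA73B, SNORD99 and SNORD1B. Of these 3, 0 had an adjusted or unadjusted p under 0.05 in edgeR.

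Across the 10 genes the FPKM was lowest in SF1-8 1 for 7 and in SF1-8 2 for 0. This order moved with the scaling between libraries. In TMM-normalised CPM (counts scaled to a common library size), SF1-8 1 was the lowest library for 5 of the 10 and SF1-8 2 the highest for 5. The summed FPKM of the 10, with the SNHG3 entry left out, was 126 and 107 with DMSO and 119 and 135 with SF1-8. With SNHG16 left out as well it was 97.0 and 89.0 with DMSO and 87.1 and 96.6 with SF1-8.

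Several host genes have a neighbour on the other strand, and the sources used here do not say whether the counting used strand. GAS5-AS1 overlaps the GAS5 entry over 4760 bases and had FPKM values between 3.82 and 4.53 in the 4 libraries. Without strand, its reads and those of GAS5 cannot be told apart. DIPK1B overlaps the SNHG7 entry over 3377 bases and had 4.24 to 4.60 FPKM in the 4 libraries. PRSS12, opposite SNHG8, was listed at 0 in all libraries, and TRNAU1AP overlaps the SNHG12 entry by 8 bases (log2 fold change 0.049). The second entry of RCC1, the pseudogene PRDX3P2 and ST6GALNAC2 also overlap host gene entries, with log2 fold changes of -0.16, 0.13 and -0.20 and unadjusted p-values of 0.308, 0.401 and 0.600 in edgeR. ZBTB37, a zinc finger gene that starts 92 bases from the GAS5 entry on the other strand, had a mean of 3.51 FPKM ± 0.020 (SD of 2 libraries) with DMSO, and 1.68 and 0.684 with SF1-8. It was named after its values were seen. In the fit the log2 change came to -1.54 (SE 0.417, edgeR adjusted p = 0.970), beside 0.0071 for GAS5.

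Other snoRNA hosts were compared in the same way. Of 22 further noncoding hosts, 20 were tested and 0 passed an adjusted p of 0.05 in edgeR, with 12 log2 fold changes below and 8 above 0 and a median of -0.060. At an unadjusted p under 0.05 there were 2 of the 20, against 4.33% of all tested entries. ZFAS1, the host of SNORD12 snoRNAs, gave FPKM of 5.80 and 5.79 under DMSO and 4.77 and 4.98 under SF1-8 (log2 fold change -0.22, SE 0.085). SNHG17 had 5.77 and 5.16 with DMSO and 5.99 and 7.46 with SF1-8 (log2 fold change 0.32, SE 0.123). The highest FPKM was that of the SNHG32 entry, which also names the heat shock genes HSPA1A and HSPA1B, with a log2 change of -0.033 (SE 0.315). SNHG29 came next, with 0.17 (SE 0.088). The entries of SNHG4, SNHG14, SNHG20 and DANCR also name protein-coding genes (MATR3, SNRPN, SEC14L1 and RASL11B). The values of this list are therefore not those of noncoding RNA alone. Of 19 protein-coding hosts, most of them ribosomal protein and translation factor genes, 0 had an adjusted or an unadjusted p under 0.05 in edgeR, with 5 below and 14 above 0 and a median of 0.055. EEF2, elongation factor 2 of translation, had 534 and 555 FPKM with DMSO and 550 and 542 with SF1-8. RPL7A had 378 and 277 with DMSO and 304 and 367 with SF1-8.

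Genes whose products process or remove these RNAs followed. Of 17 genes of snoRNA particle proteins and their assembly factors, NOP56 and DKC1 among them, which are also snoRNA hosts, 0 passed an adjusted p of 0.05 in edgeR, and the median log2 fold change was 0.041. FBL, the box C/D methyltransferase fibrillarin, had between 92.7 and 95.3 FPKM in the 4 libraries. NOP10, a core protein of box H/ACA particles, had 86.0 and 78.5 with DMSO and 78.6 and 82.2 with SF1-8. The 1 gene of the list with an unadjusted p under 0.05 (4.33% of all tested entries) was ZNHIT3, an assembly factor, with 4.29 and 4.08 FPKM with DMSO and 3.04 and 3.34 with SF1-8 (log2 fold change -0.37, SE 0.104). Of 16 NMD and exon junction genes, 0 passed at the adjusted or the unadjusted threshold in edgeR, with 7 below and 9 above 0 and a median of 0.0082. UPF1, the central helicase of NMD, showed a log2 change of 0.035 (SE 0.069) and SMG5 of 0.043 (SE 0.064). Of 17 genes of decapping, XRN1 and the RNA exosome, 0 passed either threshold in edgeR, with a median of 0.045 and 0.085 (SE 0.073) for MTREX, the exosome helicase, and 0.19 (SE 0.092) for the exosome subunit EXOSC4.

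**Figure D5:**
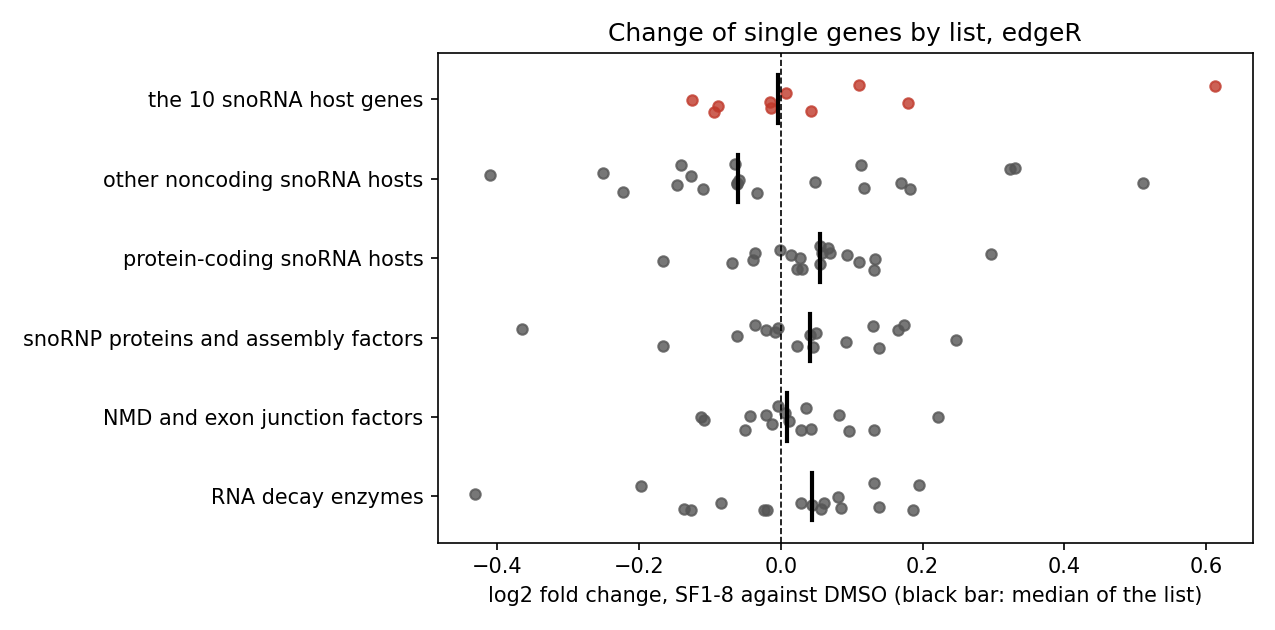
Each point is the log2 fold change of a tested entry, SF1-8 against DMSO, from edgeR, and black bars mark the median of each list. The medians of the 6 lists lie between -0.060 and 0.055, and SNHG16, at 0.61, is the point farthest to the right.

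Other mRNAs known as decay targets made up a short list. Of 7, 0 passed an adjusted p of 0.05 in edgeR and 2 had an unadjusted p under 0.05, 1 lower (2.54% of all tested entries) and 1 higher (1.78%). ATF3, a stress response transcription factor, gave FPKM of 0.321 and 0.127 under DMSO and 0.763 and 0.775 under SF1-8. DDIT3, another stress factor, had 15.6 and 13.2 with DMSO and 8.54 and 10.4 with SF1-8, and GADD45A, the most abundant of the list, showed a log2 change of -0.038 (SE 0.128).

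The count totals ran from 45522905 in DMSO 1 to 67554610 in SF1-8 1, and entries of ribosomal RNA loci held 11.5% to 14.6% of them. The erythroid factors GATA1 (75.9 to 79.1 FPKM) and KLF1 (23.9 to 25.9) were present in every library. Of the 6 entries that hold the 8 erythroleukemia markers, 0 had an adjusted or unadjusted p under 0.05 in edgeR. The FPKM of 3 of these 6 was lower in both SF1-8 libraries, as in 20.0% of tested entries. These were GATA1, KLF1 and the globin entry. The globin entry, which names HBG1, HBG2, HBE1 and other genes, had 33.3 and 29.3 FPKM with DMSO. With SF1-8 it had 27.5 and 27.8 (log2 fold change -0.15, SE 0.061). The U2AF1 entry, in which mutant and normal RNA are not told apart, stood at 11.4 to 12.0 FPKM. The 7 stromal cell markers summed to 9.93 and 4.72 FPKM with DMSO and 2.46 and 0.594 with SF1-8. Of these 7, 0 passed an adjusted p of 0.05 in edgeR, 5 were lower at an unadjusted p under 0.05 (2.54% of all tested entries) and 6 were lower in both SF1-8 libraries (20.0%), with COL1A1 the most abundant and LUM at 0 there. In such bulk samples fewer cells of a type and less RNA per cell cannot be told apart. Of the 6 markers of other blood cells, 4 were tested and 0 passed an adjusted or unadjusted p of 0.05 in edgeR, with a sum of 4.58 to 6.45 FPKM, most of it LYZ. The part of these other markers in the host gene values was not tested.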

How the data were processed

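RNA-seq of 2 DMSO and 2 SF1-8 libraries was analysed, grouped by the sample titles. The authors deposited, for each entry of a merged assembly, an FPKM value (normalized for length and depth, with 0.0001 in place of 0) and a whole-number count. The deposited values were taken as estimated counts, not reads, since 4 was the commonest value above 0, so no counting error is given. The submitters' processing notes name cutadapt, FastQC, Bowtie2, HISAT2, StringTie and hg38, and versions are not given in the sources used here. Entries without a gene name (2095, 0.372% of counts) were left out.

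Counts were filtered by filterByExpr, scaled by TMM (factors 0.973 to 1.05) and tested by edgeR's quasi-likelihood test (edgeR 4.0.16, R 4.3.3), with p-values adjusted by Benjamini-Hochberg over 26167 entries. Standard errors and 95% intervals come from that fit. On simulated counts for these 26167 entries the test found 87.5% of 200 genes changed 4-fold, with 3.85% of calls false. The changed genes were drawn from entries of higher count, and the simulated spread followed the fitted trend. Smaller changes, such as those of the host genes, were not simulated. DESeq2 1.42.0 and limma 3.58.1 on log2(FPKM + pseudocount) were alternatives, with other scalings, filters and left-out libraries.

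The host genes and lists were chosen with earlier results of these data known. All 10 host genes are named, and of each other list any gene past the adjusted threshold, the 2 of highest mean FPKM, the largest rise and fall at an unadjusted p under 0.05, and genes whose entry overlaps that of a host gene.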

Additional observations from a re-analysis of the deposited data

How the results depend on the processing

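The number of the 10 host genes past an adjusted p of 0.05 was 0 in the test reported and under each of the 16 alternatives run, with 0 or 1 of them at an unadjusted p under 0.05. That gene was SNHG16 except without DMSO 2, when it was SNHG3 (unadjusted p = 0.00276, adjusted p = 0.325, edgeR). With 1 library left out its group has a single library, which is assumed to vary like the 2 of the other group. SNHG16 missed the unadjusted threshold with library totals alone, upper-quartile factors, counts divided by 4, the limma fits, and without DMSO 2 or SF1-8 2. The adjusted p of SNHG16 lay between 0.313 and 1.00 over its alternatives. The median log2 fold change of the 10 lay between -0.054 and 0.060 when 1 library was left out, moved by less than the typical replicate SD of 0.103 under every alternative, and was -0.049 with library totals alone, where the median of all entries also moved, to -0.058.

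The number of called entries among all tested, 11 in the test reported, was 143 with DESeq2, 31 with no filter on low counts, 0 with the replicate number as a block, 1 with limma on log2(FPKM + 1), 0 with a pseudocount of 0.1, 0 with limma when low values were kept, and 0 to 30 with 1 library left out, 0 without DMSO 1. At an unadjusted p under 0.05, 971 entries differed under the block, 746 with the pseudocount of 0.1, 1754 with limma and no filter and 1341 without DMSO 1. Libraries of the same number share only that number (their deviations correlated at 0.016), and under the block no call on a host gene changed.

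The sign changed under at least 1 alternative for 7 of the 10 genes. GAS5 was at -0.040 with library totals alone, -0.0084 with upper-quartile factors, -0.0060 with counts divided by 4, -0.019 with limma, -0.020 with the pseudocount of 0.1 and -0.019 with no filter. SNHG5 was at -0.0043 with library totals alone. With 1 library left out, GAS5 ranged from -0.012 to 0.034, SNHG1 from -0.077 to 0.33, SNHG3 from -0.031 to 0.43, SNHG5 from -0.030 to 0.12, SNHG6 from -0.096 to 0.077, SNHG7 from -0.26 to 0.089 and SNHG15 from -0.12 to 0.099. SNHG8, SNHG12 and SNHG16 kept their sign under all alternatives. Leaving out small structured RNAs and ribosomal RNA loci, chosen after seeing the data, changed no sign.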
